A study of Homo sapiens with 4 samples.

Results

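The 10 genes described here are negative feedback regulators of receptor and mitogen-activated protein (MAP) kinase signalling, namely the dual-specificity phosphatases DUSP1, DUSP2, DUSP4, DUSP5 and DUSP6, the Sprouty genes SPRY2 and SPRY4, the Sprouty-related genes SPRED1 and SPRED2, and PHLDA1. They were taken by gene symbol, 1 row each, from a table of 61806 genes. RNA with a poly(A) tail was sequenced from MDA-MB-231, a human breast cancer cell line, and from MDA-MB-435, a line that the labels call melanoma cells, both labelled as wild type. Each line was sequenced as a control and after 10 µM CPYPP for 6 h, which gave 4 libraries, 1 per condition, with no replicate. CPYPP inhibits DOCK proteins, which activate the small GTPase Rac, and the study asked which genes change while the compound kills cells by vacuolization (paraptosis). The vehicle given to the control cells is not stated for the sequenced cultures, and the treatment text of all samples names MDA-MB-435 alone, so the lines were taken from the sample titles.

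Growth factor receptors pass their signal through Ras, Raf and MEK to the MAP kinases ERK1 and ERK2, while stress activates the related kinases JNK and p38. Active MAP kinases switch on genes whose products turn the pathway off again. DUSP proteins of this group remove both phosphates that activate a MAP kinase, Sprouty proteins act between the receptor and Raf, and SPRED proteins bring the Ras inactivator neurofibromin to the membrane. The mRNAs of several of these genes are short-lived, and their levels are often used as a readout of ERK activity.

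The libraries held between 17196385 and 22663954 counts, and 1 library per condition leaves the variation between cultures unknown. Every interval given with a fold change is a 95% exact binomial (Clopper-Pearson) interval that covers counting error only. Likewise each within-line test sets 1 library against another and cannot speak for the conditions. A gene was called higher or lower at a fold change over 2 with an adjusted p-value under 0.05 in edgeR's two-sided exact binomial test, among genes with at least 10 counts in either library of the pair. SOX10, a transcription factor of the melanocyte lineage, had 0 and 1 counts in the MDA-MB-231 libraries and 3031 and 707 in the MDA-MB-435 libraries, whereas the pigment enzyme gene TYR had at most 3 counts in any library and MLANA at most 14. EGFR, high in basal breast cancer cells, had 12150 and 8161 counts in MDA-MB-231 but 70 and 33 in MDA-MB-435. The keratin genes KRT7 and KRT8 went the same way, with 14488 and 12813 counts in the MDA-MB-231 control against 625 and 522 for MDA-MB-435. Control ratios, MDA-MB-435 over MDA-MB-231, were 0.652 for KRT18, 1.24 for CD44 and 2.39 for the mesenchymal gene VIM. Of further melanocyte genes, DCT had 1 and 658 counts in these controls, whereas MITF and PMEL were lower in MDA-MB-435 (ratios 0.827 and 0.357). Where a marker fell after CPYPP within a line, as SOX10 did in MDA-MB-435, fewer cells with it and less RNA per cell cannot be told apart.

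CPYPP moved the feedback genes in opposite directions. DUSP1 rose and SPRY2 fell past the thresholds in both lines, DUSP5 and SPRY4 rose in MDA-MB-231, and DUSP2 rose and PHLDA1 fell in MDA-MB-435. These calls rest on counting error alone. With variation between cultures assumed at a biological coefficient of variation of 0.4, 0 members were called higher and 0 lower in each line. In MDA-MB-231, 3 of the 9 members tested were higher and 1 was lower, beside 4.22% higher and 3.09% lower among all 16441 genes tested. In MDA-MB-435, 2 of 10 were higher and 2 lower, beside 3.17% and 6.52% of 16527 genes. Of the 9 members tested in both lines, DUSP1 was the 1 higher in each and SPRY2 the 1 lower in each, against 1.04% and 0.989% of the 14262 genes tested in both. The median log2 fold change of the members was −0.12 for MDA-MB-231 and −0.04 for MDA-MB-435, beside −0.01 and −0.02 for all genes tested. All 9 members tested in both lines had the same sign in each, compared with 66.8% of all genes tested in both, although SPRED2 in MDA-MB-435 lay so near 0 that its sign turned under other scalings. DUSP1 and DUSP2 also stand in a list that the study drew from these same libraries, so their direction is not independent evidence. All 10 members were chosen with earlier results of these data known. Their shares beside those of all genes therefore describe these libraries and are not independent evidence either.

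**Figure D1:**
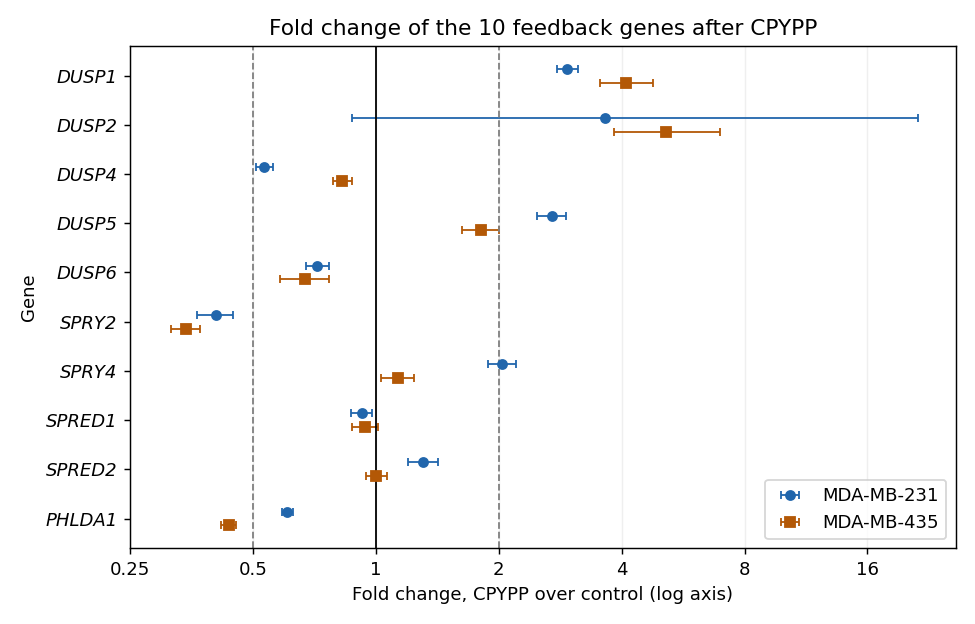
Fold change of each gene after CPYPP over its control (log axis) in MDA-MB-231 (circles) and MDA-MB-435 (squares), with 95% exact binomial intervals for counting error. Dashed lines mark a fold change of 2 either way. DUSP1 lies above 2 and SPRY2 below 0.5 in both lines, SPRED1 and SPRED2 lie near 1, and DUSP2 in MDA-MB-231 rests on 3 and 8 counts.

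DUSP1, the phosphatase that acts on p38 and JNK as well as on ERK, rose in both lines. It was counted 1658 times in the MDA-MB-231 control and 3579 times after CPYPP, a 2.95-fold rise (2.78 to 3.12). In MDA-MB-435 it was counted 230 times in the control and 732 times after CPYPP, a 4.10-fold rise (3.53 to 4.78). The CPYPP library was thus the higher one in each line, and the change in DUSP1 was larger than that of 97.6% of the genes tested for MDA-MB-231 and of 99.2% for MDA-MB-435. DUSP1 (ENSG00000120129) lies on the minus strand of chr5:172768096-172771195 in GRCh38, the build that the table's positions follow. The 250 bases before its start are shown because DUSP1 is a well-known target of cAMP and stress signalling, beside those of DUSP2, which also rose, and of SPRY2, which fell. Capitals mark TGACG on either strand, the core of the cAMP response element TGACGTCA. The sequences are those of RefSeq on GRCh38.p14, all on the minus strand, at chr5:172771196-172771445, chr2:96145441-96145690 and chr13:80341127-80341376.
DUSP1: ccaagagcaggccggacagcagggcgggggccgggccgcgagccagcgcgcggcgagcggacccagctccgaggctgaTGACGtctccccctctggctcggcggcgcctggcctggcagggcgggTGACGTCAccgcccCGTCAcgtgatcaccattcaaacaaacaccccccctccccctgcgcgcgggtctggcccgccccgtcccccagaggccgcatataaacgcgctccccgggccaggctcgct
DUSP2: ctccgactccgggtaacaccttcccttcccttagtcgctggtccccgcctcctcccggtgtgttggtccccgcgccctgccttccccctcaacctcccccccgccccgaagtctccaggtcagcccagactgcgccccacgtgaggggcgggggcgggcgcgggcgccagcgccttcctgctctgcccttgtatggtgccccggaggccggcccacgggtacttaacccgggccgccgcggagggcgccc
SPRY2: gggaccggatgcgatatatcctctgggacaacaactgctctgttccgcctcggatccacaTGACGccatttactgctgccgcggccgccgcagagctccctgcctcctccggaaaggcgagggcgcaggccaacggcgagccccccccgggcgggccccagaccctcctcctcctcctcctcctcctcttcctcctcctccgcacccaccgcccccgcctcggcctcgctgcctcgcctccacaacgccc

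The full element TGACGTCA stood 125 bases before the start of DUSP1 and in none of the other promoter windows searched. Windows of 8 of the 10 genes were searched. DUSP4 and DUSP5 were not, so nothing is known here of their promoters. Of the 35116 promoters of all genes, 1.65% held this element on either strand. DUSP1 held TGACG at 4 places, 2 of them within the full element, SPRY2 and SPRY4 held it once each, and 21.2% of all promoters held it. The E-box CACGTG was found 108 bases before the start of DUSP1, where it overlaps the last TGACG, and 113 bases before that of DUSP2, and 6.35% of all promoters held it. The TATA box TATAAA stood 30 bases before the start of DUSP1 and 31 bases before the start in a window of SPRED2. It was found in 10.7% of promoters. The antioxidant response element TGACNNNGC matched once in DUSP1, 115 bases before the start and overlapping the last TGACG, and once in SPRY4, 228 bases before it, and 10.9% of promoters held it. The GC box GGGCGG matched at 4 places in DUSP1, 3 in DUSP2, 2 in the SPRY2 window shown and 1 each in SPRY4, PHLDA1 and SPRED1, and 42.6% of promoters held it. None of the windows of these 8 genes held the AP-1 letters TGANTCA (6.57% of promoters), the ETS letters CCGGAAG (8.52%), the heat shock core GAANNTTC (5.78%) or a CArG box (1.16%). These matches describe letters within 250 bases and say nothing of binding.

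DUSP2, a nuclear phosphatase best known from immune cells, was nearly silent in MDA-MB-231. It had 3 counts in that control and 8 after CPYPP, both under the minimum for a test, and the ratio of 3.64 has an interval of 0.874 to 21.3. MDA-MB-435 held 58 counts in the control and 231 after CPYPP, a 5.14-fold rise (3.84 to 6.97), the largest fold change of the 10 genes in this line. The gene passed the minimum count in MDA-MB-435 alone.

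DUSP5, a nuclear phosphatase that acts on ERK alone, rose in MDA-MB-231 from 902 to 1782 counts, 2.70-fold (2.49 to 2.92). In MDA-MB-435 it went from 616 to 863 counts, a ratio of 1.81 (1.63 to 2.01) that did not pass the fold threshold. DUSP4, its relative that acts on ERK and JNK in the nucleus, went the other way. It had 6107 counts in the MDA-MB-231 control and 2388 after CPYPP, a ratio of 0.534 (0.509 to 0.560), and 3486 and 2235 counts in MDA-MB-435, a ratio of 0.827 (0.784 to 0.872). Neither ratio passed a fold change of 2, and the value in MDA-MB-231 was the nearer to it. DUSP6, the cytoplasmic phosphatase of ERK whose mRNA follows ERK activity closely, had 2588 and 1364 counts in MDA-MB-231, a ratio of 0.719 (0.673 to 0.768). In MDA-MB-435 DUSP6 had 612 and 318 counts, a ratio of 0.670 (0.583 to 0.768). The CPYPP library was the lower one for DUSP4 and DUSP6 in each line. By direction alone, the nuclear phosphatases of the same family split into DUSP1, DUSP2 and DUSP5 on one side and DUSP4 on the other. The calls do not show this split, since DUSP4 was called in neither line, DUSP5 in MDA-MB-231 alone and DUSP2 in MDA-MB-435 alone.

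SPRY2, which holds back signalling from fibroblast growth factor and other receptors, fell in both lines. MDA-MB-231 went from 1682 to 499 counts, a ratio of 0.405 (0.366 to 0.448), and MDA-MB-435 from 2889 to 767, a ratio of 0.342 (0.316 to 0.371). These are falls by a factor of 2.47 and 2.92, and 3.10% and 3.79% of the genes tested in each line had a lower fold change. SPRY4, its relative, had 1094 counts in the MDA-MB-231 control and 1631 after CPYPP, a 2.03-fold rise (1.88 to 2.2) whose interval crosses the threshold of 2. With total counts, the upper quartile or TMM over the 4 libraries in place of TMM of the pair, the fold change of SPRY4 was under 2 and the call was lost. SPRY4 had 931 and 816 counts in MDA-MB-435, a ratio of 1.13 (1.03 to 1.24). SPRY4 therefore passed the threshold narrowly in one line and lay near its control level in the other.

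The SPRED genes stayed near their control levels. SPRED1 had 2733 and 1847 counts in MDA-MB-231, whereas MDA-MB-435 held 1741 and 1270, ratios of 0.922 (0.869 to 0.979) and 0.941 (0.874 to 1.01). SPRED2 had 1169 and 1118 counts in MDA-MB-231, whereas MDA-MB-435 held 2503 and 1948, ratios of 1.31 (1.20 to 1.42) and 1.00 (0.945 to 1.07). The libraries differ in depth, which is why SPRED2 has fewer counts after CPYPP and a ratio of 1 or more. PHLDA1, a growth factor-induced protein with a pleckstrin homology-like domain, had the most counts of the 10 genes in each library. MDA-MB-231 went from 11635 to 5178 counts, a ratio of 0.607 (0.588 to 0.628), and MDA-MB-435 fell from 8437 to 2851, a ratio of 0.436 (0.417 to 0.455).

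The treatment was repeated only across lines, and a common effect of CPYPP was therefore estimated from all 4 libraries, with a block for the line, using edgeR's quasi-likelihood test with Benjamini-Hochberg adjustment on 16801 genes and 1 residual degree of freedom. By this fit 3 of the 10 members rose and 4 fell, beside 4.39% and 2.85% of all genes. DUSP1 rose by 1.73 on the log2 scale (SE 0.136, adjusted p = 7.1e-05 in edgeR), DUSP2 by 2.21 (SE 0.420, adjusted p = 0.0118) and DUSP5 by 1.10 (SE 0.165, adjusted p = 0.00334). DUSP2 had only 3 and 8 counts in MDA-MB-231. Its value therefore rests mainly on MDA-MB-435 and does not show a rise shared by both lines. The falls were −1.47 for SPRY2 (SE 0.133, adjusted p = 0.000177 in edgeR), −1.0 for PHLDA1 (SE 0.139, adjusted p = 0.00240), −0.63 for DUSP4 (SE 0.140, adjusted p = 0.0231) and −0.56 for DUSP6 (SE 0.130, adjusted p = 0.0279). DUSP4 and DUSP6, which did not pass the fold threshold in either line, passed here because this fit sets no minimum fold change. SPRY4 (0.56, SE 0.192, adjusted p = 0.113 in edgeR), SPRED2 (0.15, adjusted p = 0.601) and SPRED1 (−0.15, adjusted p = 0.520) did not pass. Without the line as a block, 0 genes passed the adjusted threshold and 167 genes, 1 of them a member, had an unadjusted p under 0.05.

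Before treatment the lines held these genes at different levels. Between the controls, DUSP1 was 7.73 times lower in MDA-MB-435 than in MDA-MB-231 (ratio 0.129, 0.112 to 0.149) and DUSP6 was 4.53 times lower (ratio 0.221, 0.202 to 0.241). DUSP2 was higher in MDA-MB-435, at a ratio of 18.0 (5.87 to 90.0) over the 3 counts of MDA-MB-231. That makes 1 member higher and 2 lower, beside 22.2% and 20.9% of the 18269 genes tested between the controls, so calls in this comparison were common among all genes. DUSP2 entered this test only through its 58 counts in the MDA-MB-435 control, the library where it is high. With at least 10 counts asked for in both controls, 0 members were higher. SPRED2 lay at a ratio of 1.998 (1.86 to 2.14), on the threshold itself, and passed it under other scalings. SPRY2 was also higher in the MDA-MB-435 control (ratio 1.60, 1.51 to 1.70) without passing a fold change of 2. No other member passed it, with ratios between 0.533 for DUSP4 and 0.794 for SPRY4.

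On the RPKM scale (reads per kilobase of exon, scaled to library size), which allows levels of different genes to be set side by side, PHLDA1 was highest in both controls, at 85.9 for MDA-MB-231 and 59.8 for MDA-MB-435. In the MDA-MB-231 control it was followed by DUSP4 at 36.7 and DUSP1 at 36.0, whose intervals overlap, then by DUSP6 at 29.3, SPRY2 at 22.9, DUSP5 at 15.5, SPRED1 at 15.4, SPRED2 at 9.27, SPRY4 at 7.29 and DUSP2 at 0.0679. Here the levels of DUSP5 and SPRED1 also did not differ beyond counting error. After CPYPP DUSP1 took the first place in MDA-MB-231, with a level of 106 (102 to 109), above PHLDA1 at 52.2 and DUSP5 at 41.9, and SPRY2 went down to the level of 9.25, second from the bottom. In the MDA-MB-435 control the order of levels after PHLDA1 was SPRY2 at 37.7, DUSP4 at 20.1, SPRED2 at 19.1, DUSP5 at 10.2, SPRED1 at 9.41, DUSP6 at 6.65, SPRY4 at 5.95, DUSP1 at 4.79 and DUSP2 at 1.26. DUSP4 and SPRED2, DUSP5 and SPRED1, and DUSP6 and SPRY4 had overlapping intervals there. After CPYPP DUSP1 stood in the second place in MDA-MB-435 at a level of 19.6 (18.2 to 21.1), which overlaps SPRED2 at 19.1, and DUSP6 was last at 4.45, below DUSP2 at 6.47. Although the fold change of DUSP1 was larger in MDA-MB-435, its level after CPYPP there remained below that of the untreated MDA-MB-231 cells.

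**Figure D2:**
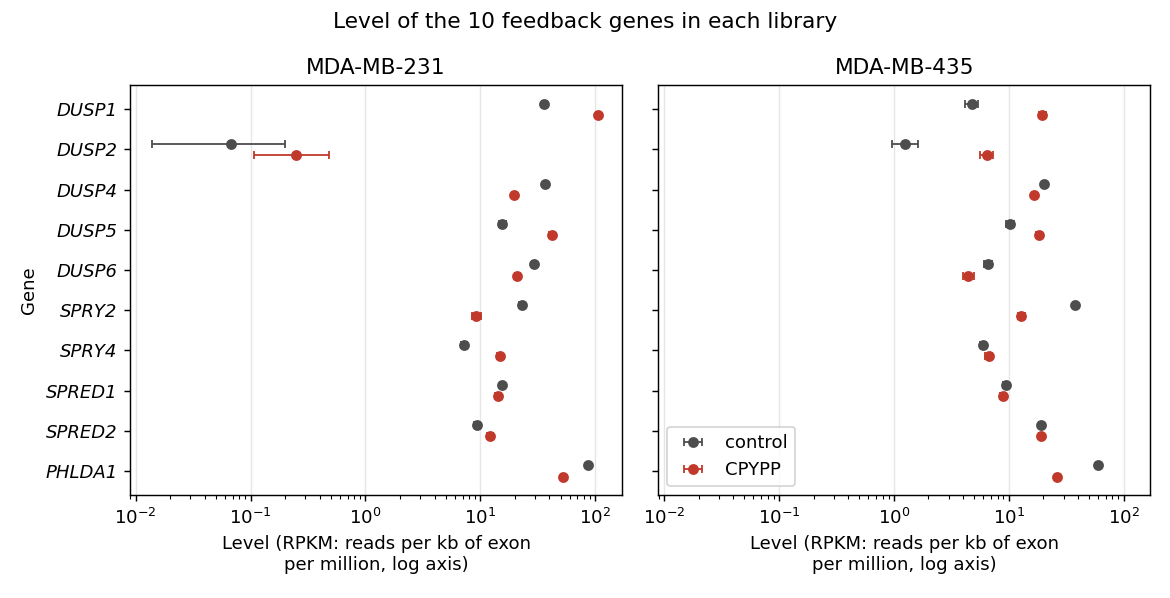
Level of each gene in RPKM, reads per kilobase of exon scaled to library size (log axis) in the control (grey) and CPYPP (red) library of each line, with 95% Poisson intervals for counting error. DUSP1 moves from 36.0 to 106 for MDA-MB-231 and from 4.79 to 19.6 for MDA-MB-435, and the 3 and 8 counts of DUSP2 in MDA-MB-231 give the widest intervals.

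The sizes of the responses were compared between the lines by the difference of the log2 fold changes, MDA-MB-435 minus MDA-MB-231, with a 95% interval for counting error, since 1 library per condition allows no test of an interaction. None of the 9 members that could be compared passed a difference over 1, beside 1.67% of 14226 genes with a higher and 4.79% with a lower value in MDA-MB-435. SPRY4 came nearest, with a difference of −0.85 (−1.02 to −0.67), and DUSP5 followed in the same direction at −0.58 (−0.77 to −0.39). DUSP4 had a difference of 0.63 (0.53 to 0.73) and DUSP1 one of 0.48 (0.25 to 0.71). The intervals of PHLDA1 (−0.48, −0.56 to −0.40), SPRED2 (−0.38, −0.53 to −0.23) and SPRY2 (−0.24, −0.43 to −0.06) also lay off 0. DUSP6 (−0.10, −0.32 to 0.11) and SPRED1 (0.03, −0.11 to 0.16) had intervals that held 0.

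Outside the 10 members, 90 genes of the pathway were followed in 9 lists, and 84 of them were tested in each line. MDA-MB-231 had 4 of them higher and 1 lower, which is 4.76% and 1.19%, beside 4.22% and 3.09% of all genes. MDA-MB-435 had 2 higher and 3 lower, which is 2.38% and 3.57%, beside 3.17% and 6.52%. The shares of calls among these pathway genes were thus near or below those of all genes. Of the cascade itself, 0 of the 19 genes from EGFR and the Ras adaptors to ERK and its kinases RPS6KA1 and RPS6KA3 were called in either line, and 0 of 15 and 0 of 14 genes of the JNK, p38 and ERK5 branches. With 7.31% of all genes called either way in MDA-MB-231 and 9.69% for MDA-MB-435, a list of 19 genes would hold 1.39 and 1.84 calls at those shares, so 0 calls do not set these lists apart. By the common fit, 1 gene of each of these lists rose, SOS1, a Ras activator (0.52, adjusted p = 0.0230 in edgeR), and MAP2K4, a JNK activator (0.65, adjusted p = 0.00836), both named after their values were seen. The other MAP kinase phosphatases gave 0 calls among 5 and 4 genes tested, the atypical dual-specificity phosphatases 0 among 8 and 10, and the Ras GTPase-activating proteins 0 among 7 in each line. The common fit, which sets no minimum fold change, gave further calls in these and the following lists, which are also named with their values known. The ERK phosphatase gene DUSP7 fell (−0.64, adjusted p = 0.0270 in edgeR), as did the Ras inactivator RASA1 (−0.64, adjusted p = 0.00944) and the cyclin gene CCND1 (−0.70, adjusted p = 0.00626). ERRFI1, which blocks the EGF receptor, rose (0.71, adjusted p = 0.00369 in edgeR), and so did CBL, which marks receptors for degradation (0.62, adjusted p = 0.0140).

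Among the other Sprouty, SPRED and PHLDA genes, 1 of 4 tested was lower in each line and 0 were higher. This was SPRY1, the relative of SPRY2, which fell from 242 to 82 counts in MDA-MB-231 (ratio 0.462, 0.356 to 0.596) and from 77 to 16 for MDA-MB-435 (ratio 0.268, 0.146 to 0.463). Of the 8 other feedback regulators of receptor signalling, the ubiquitin ligase adaptor gene SPSB1 rose in MDA-MB-231 from 553 to 853 counts (2.11-fold, 1.89 to 2.35) and the early response gene IER3 fell in MDA-MB-435 from 1756 to 493 (ratio 0.362, 0.327 to 0.40). ERK-driven target genes were mixed, as the feedback genes were, with 2 of 12 higher (0 lower) for MDA-MB-231, while MDA-MB-435 had 2 higher and 1 lower. FOS, a subunit of the transcription factor AP-1, rose in both lines, from 30 to 71 counts in MDA-MB-231 (3.23-fold, 2.08 to 5.13) and from 32 to 78 for MDA-MB-435 (3.14-fold, 2.06 to 4.90). The early growth response factor EGR1 rose in MDA-MB-231 from 83 to 159 counts (2.61-fold, 1.99 to 3.45). MYC rose in MDA-MB-435 from 1773 to 3107 counts (2.26-fold, 2.13 to 2.40), and the ephrin receptor gene EPHA4 fell there from 322 to 42 (ratio 0.168, 0.119 to 0.232). Of the 6 genes for proteins that bind AU-rich elements, ZFP36, which destabilizes short-lived mRNAs, rose in MDA-MB-231 from 129 to 213 counts (2.25-fold, 1.80 to 2.83), and 0 were called in MDA-MB-435.

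**Figure D3:**
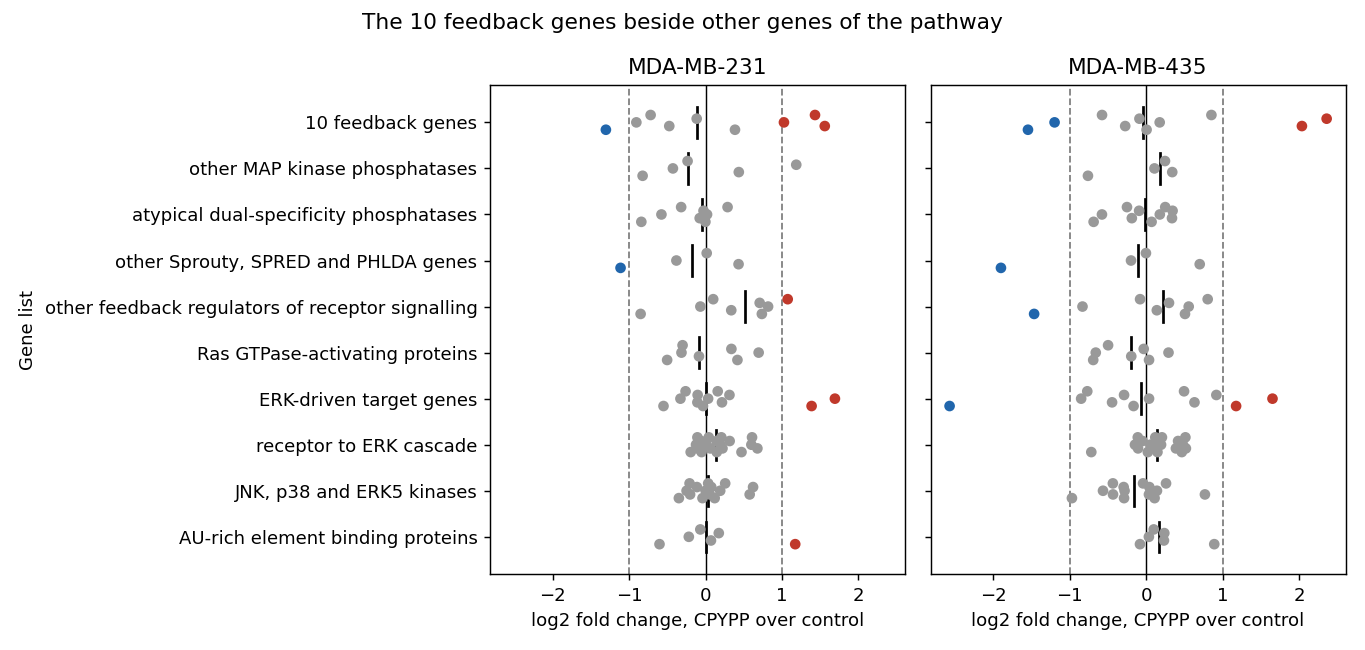
log2 fold change after CPYPP of the tested genes of each list, with red points called higher, blue points called lower, grey points not called and a black bar at each list's median. Dashed lines mark a fold change of 2 either way. The 10 feedback genes reach both sides of the dashed lines, and the 19 genes of the receptor to ERK cascade lie between them.

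In the table's own annotation 7 of the 10 carry the term for inactivation of MAP kinase activity, which 26 genes of the table carry. Of the 10 genes, 8 span less than 20 kb, as do 42.4% of the genes tested in MDA-MB-231, and the others, SPRED1 at 104 kb and SPRED2 at 122 kb, were the members called neither within a line nor by the common fit. Over all genes tested in MDA-MB-231, 5.08% of those under 20 kb were higher and 4.85% lower, against 4.13% and 1.53% of those over 100 kb. In MDA-MB-435 the shares were 3.82% and 9.40% under 20 kb and 2.09% and 5.10% over 100 kb. The part of gene length in the members' values was not tested.

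The genes whose levels moved most like those of DUSP1 over the 4 libraries, by Euclidean distance of centred log2 CPM among 12180 genes, were CTH (distance 0.434), PMAIP1 (0.615), MAP1B (0.693), RIT1 (0.787) and SEL1L3 (0.829). CTH, the cystathionine gamma-lyase gene, had log2 fold changes of 0.98 and 1.86, and PMAIP1, which encodes the pro-apoptotic protein NOXA, of 0.83 and 2.24. DUSP6 was nearest to ZNF665 (0.0680), PRKAG2 (0.172), ZNF606 (0.213), BAHCC1 (0.224) and LINC02742 (0.233). The distances hold the gap between the lines as well as the response to CPYPP. With the controls scaled as a pair, MDA-MB-435 against MDA-MB-231, the gap was −2.95 on the log2 scale for DUSP1 and −2.18 for DUSP6. Each is larger than that gene's response in either line. The distances use library sizes scaled within each line, so the gap that they hold differs slightly. The 4 libraries are the only points behind these distances, so the distances describe these cultures and no more.

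Whether reads were counted by strand is not stated, so a member that overlaps another gene could share reads with it. SPRY4-AS1, antisense to SPRY4, had 49 and 31 counts in MDA-MB-231, with 26 and 9 in MDA-MB-435, and PHLDA1-AS1 had at most 8 counts in any library. The remaining overlapping genes, which have no symbol in the table, had at most 18 counts. All are far below the counts of the member they overlap.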

How the data were processed

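The deposited table gives the number of reads counted on each gene, as raw counts that the authors had not normalized. Per the submitters' processing notes the tools were cutadapt 1.9.1, HISAT2 2.2.1, HTSeq 0.6.1 and DESeq2, with genome build GRCh37.p13, but 58204 of the 58254 identifiers shared with GENCODE 29 have positions that overlap it, and coordinates are therefore given as GRCh38. The strand setting is not given in the sources used here. Annotation columns of the table were used for names, positions, exon lengths and terms.

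The software was edgeR 4.0.16, limma 3.58.1 and DESeq2 1.42.0 under R 4.3.3, together with matplotlib 3.10.9, scipy 1.17.1, pandas 2.3.3 and numpy 2.4.6 under Python 3.11.15. Library sizes were scaled by TMM of the pair compared, over genes with at least 10 counts in either library (factors 1.02 and 0.976 for control and treated MDA-MB-231 cells, 1.05 and 0.950 for MDA-MB-435). Levels compared between genes are RPKM on these library sizes, scaled within each line. The ratios between the controls use TMM of the control pair and so differ slightly from ratios of the levels. Pairs of libraries were compared with edgeR's two-sided exact binomial test, which covers counting error alone, at the study's thresholds (fold over 2, adjusted p under 0.05). The common effect used glmQLFit after filterByExpr, with a common dispersion of 0.0146 (biological coefficient of variation 0.121), which measures how far the lines' responses differ rather than the spread between cultures. Each test ran over all genes that passed its filter on low counts (16441 and 16527 genes within the lines, 18269 between the controls and 16801 for the common effect), and p-values were adjusted over all genes tested. The steps were tested on simulated data. For pairs of libraries these data held counting error alone. For the common effect they held a fixed variation and the same change in both lines. They therefore cannot speak for variation between cultures or for lines that respond differently. The fold changes of both lines share no library, whereas the common effect reuses all 4.

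The members and the gene lists were chosen with earlier results of these data known. Named besides the members were the list genes past the thresholds the same way in both lines and, in each list and line, the gene with the largest fold change each way among those past the thresholds. SOS1, MAP2K4, DUSP7, RASA1, CCND1, ERRFI1 and CBL fall outside this rule and were chosen from the common effect after their values were seen. Alternatives concerned scaling, filters on low counts, the fold threshold, an assumed biological coefficient of variation, the prior count, DESeq2 for the common effect and the block for the line.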

Additional observations from a re-analysis of the deposited data

How the results depend on the processing

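Under 13 other settings, 347 of 390 fold changes and differences of single members kept their direction and their side of the threshold. For pairs of libraries, the settings for filters, fold threshold, calls without a test and assumed variation leave the fold change itself unchanged. These could move the call but not the direction. For the common effect, the prior count changes the fold change reported but not the test, so it could not move a member past the threshold. Of 78 recomputed counts of members called, 61 stayed within 1.5 times the reported count, which includes shifts of 1 member, such as 2 in place of 3 higher in MDA-MB-231 where SPRY4 lost its call. With 1 library per condition the calls rest on counting error, and fewer passed where variation between cultures was assumed. With a biological coefficient of variation set to 0.2, MDA-MB-231 kept 1 call higher and 0 lower, and MDA-MB-435 kept 2 higher and 1 lower. At 0.4 there were 0 higher and 0 lower in each line, with 1 higher and 1 lower between the controls. At 0.2 DUSP1 was still called in both lines, whereas SPRY2 lost its call in MDA-MB-231 and was still called in MDA-MB-435. DUSP5 and SPRY4 also lost their calls in MDA-MB-231, and PHLDA1 lost its call in MDA-MB-435. A fold threshold of 1.5 gave 3 members lower in MDA-MB-231, DUSP4 and PHLDA1 being added, and 3 higher and 5 lower between the controls. Between the controls, 2 members were higher with total counts, with the upper quartile and with TMM over the 4 libraries, a setting chosen after seeing the data, and 0 were higher when 10 counts were asked for in both libraries, because DUSP2 then left the test. Without the block for the line the common effect gave 0 members higher and 0 lower. DUSP2 lost its common call with DESeq2, and SPRY4 gained one with total counts and with no filter on low counts. Total counts shifted every log2 fold change in MDA-MB-435 by −0.149 and the upper quartile by −0.111, so that the value of SPRED2 there turned to −0.144 and −0.106, and to −0.0454 with TMM over the 4 libraries. The difference between the lines for SPRED1 turned to −0.0509 with total counts and to −0.0346 with the upper quartile.

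The labels carry no replicate numbers, and the only pairing is that of control and CPYPP within a line, which the common effect uses as its block. Leaving out a library leaves the common effect with no residual degrees of freedom.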
